A study of Mus musculus with 6 samples.

Results

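The 9 genes described here encode AP-1 transcription factors and 2 close relatives: the Fos family (Fos, Fosb, Fosl1, Fosl2), the Jun family (Jun, Junb, Jund), Atf3 and Maff. They were taken by symbol from a deposited table of 54532 genes, and all 9 were found. The table holds bulk RNA-seq of mouse pancreas islet, with beta cell (the cell type that makes insulin) as its labelled cell type. There were 3 control libraries of genotype wt (numbers 1, 3 and 4) and 3 libraries of genotype Cko for Bcas2, here called Bcas2 cKO (table columns 3, 4 and 5, whereas the labels number these samples 1, 3 and 4). Bcas2 encodes a subunit of the Prp19 complex of the spliceosome, and the series design text speaks of a knockdown. The labels give neither the deleted part of Bcas2 and the promoter of any recombinase nor the strain, age and sex of the mice. They also do not say whether each library came from a separate animal, so the p-values speak of the spread among 6 libraries, some of which may be technical.

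AP-1 is a dimer of basic leucine zipper proteins. A Fos protein must pair with a Jun protein, whereas Jun proteins can also pair with each other or with ATF3, and small Maf proteins such as MAFF bind DNA without an activation domain of their own. Fos, Fosb, Jun, Junb and Atf3 are immediate early genes, transcribed within minutes of a stimulus from factors already present in the cell, and in beta cells glucose, membrane depolarization and cyclic AMP are known stimuli. Their mRNAs are short-lived, and they also respond to tissue handling, cytokines and stress.

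Promoters of 4 of the genes are shown because cyclic AMP and calcium act on Fos through TGACG-containing elements near its start. Each is the RefSeq window (GRCm38.p6) from 250 bases before to 50 bases after an annotated start, 5′ to 3′ on the gene's strand. Capitals mark TGACG on either strand, the full cyclic AMP response element TGACGTCA, which contains TGACG on both strands, and TATAAA on the gene's strand. The windows are Fos (chr12:85473640-85473939, + strand), Fosb (chr7:19309996-19310295, - strand), Junb (chr8:84978699-84978998, - strand) and the second of 3 Maff starts (chr15:79347270-79347569, + strand).
Fos: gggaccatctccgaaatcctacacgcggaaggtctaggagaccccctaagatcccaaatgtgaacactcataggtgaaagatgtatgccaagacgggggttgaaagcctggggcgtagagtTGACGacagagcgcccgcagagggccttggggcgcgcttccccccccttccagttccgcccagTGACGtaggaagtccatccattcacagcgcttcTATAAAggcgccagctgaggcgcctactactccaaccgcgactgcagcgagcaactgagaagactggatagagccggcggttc
Fosb: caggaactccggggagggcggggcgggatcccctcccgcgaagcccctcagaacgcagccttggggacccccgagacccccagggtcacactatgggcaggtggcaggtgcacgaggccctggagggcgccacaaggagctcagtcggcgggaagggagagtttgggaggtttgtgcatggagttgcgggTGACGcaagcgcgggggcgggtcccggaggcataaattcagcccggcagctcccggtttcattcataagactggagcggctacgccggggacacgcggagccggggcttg
Junb: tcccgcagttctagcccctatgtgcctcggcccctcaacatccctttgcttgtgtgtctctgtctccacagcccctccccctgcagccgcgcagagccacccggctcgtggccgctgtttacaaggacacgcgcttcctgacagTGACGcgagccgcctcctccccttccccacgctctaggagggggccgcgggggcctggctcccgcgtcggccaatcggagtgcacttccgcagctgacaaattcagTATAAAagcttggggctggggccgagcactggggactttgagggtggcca
Maff: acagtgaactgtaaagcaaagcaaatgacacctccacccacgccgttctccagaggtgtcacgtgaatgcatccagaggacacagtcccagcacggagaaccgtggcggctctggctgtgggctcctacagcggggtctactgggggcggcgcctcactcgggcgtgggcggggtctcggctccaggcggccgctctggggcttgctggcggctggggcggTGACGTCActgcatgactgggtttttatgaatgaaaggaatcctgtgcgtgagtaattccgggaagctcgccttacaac

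RefSeq windows were found for 8 of the 9 genes, 10 windows in all. TGACG lay in 6 of these 10 windows (1 each of Fos, Fosb, Junb and Atf3 and 2 of the 3 of Maff), against 20.8% of all 32851 windows. By gene this was 5 of 8. The GC content of those 6 windows was 58.7 to 68.3%, against a median of 52.7% over all windows, and the comparison was not adjusted for it. In Fos TGACG began 129 and 66 bases before the start, in Fosb 60 and in Junb 106. The full element TGACGTCA was found in the Maff window shown, 29 bases before that start, and in 1.79% of all windows. TATAAA was found in Fos, 33 bases before the start, in Junb, 1 base after the RefSeq start, and in 8.32% of all windows. The AP-1 site in its form TGANTCA was in none of the 10 windows and in 7.81% of all windows. Other forms were not searched, such as TGACATCA, which the Jun window holds. The CArG box bound by SRF was in none of the 10 and in 1.63% of all. Windows reach only 250 bases before the start, so sites further upstream, also of Fos, would be missed. These matches describe letters in a window and are no evidence of binding. The RefSeq start lies 34706 bases from the start in the deposited table for Atf3, 1210 for Jund and 671 for Fosl2. These windows may therefore miss sequence near the start used there. For the Maff window shown the starts lie 899 bases apart and for Junb 30, so the distances given for these genes depend on the start chosen.

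The deposited unit was FPKM, a read count scaled by gene length and by a depth factor, so levels of different genes can be set side by side. That factor was not the read total. It was 0.890 to 1.017 times the recovered reads in control and 1.020 to 1.109 times in Bcas2 cKO. A median-of-ratios factor computed from the deposited values was the same, 0.995, in all 6 libraries. Shares of reads and summed FPKM are therefore on different scales. Reads per gene, recovered from FPKM and gene length, totalled 15170439 to 16904326 per library, and the 9 genes held between 34 reads (Fosl1, control library 3) and 79960 reads (Fosb, Bcas2 cKO library 4). Bcas2 itself was 10.3, 15.04 and 11.2 FPKM in control libraries 1, 3 and 4, against 8.76, 8.4 and 9.14 FPKM in Bcas2 cKO libraries 3, 4 and 5, lower in all 3 but short of the test (limma adjusted p 0.083). The beta cell marker list took 20.8 to 29.1% of control reads and 14.95 to 16.3% of Bcas2 cKO reads, so the labelled cell type was present in every library. Of the 13 genes on that list 4 fell (2 to 4 when a library was left out), against 7.55% of all genes. In bulk samples, more RNA per cell and more cells of one type cannot be told apart.

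All 9 genes were higher in every Bcas2 cKO library than in any control library, and 8 of the 9 rose (limma with trend on log2(FPKM + 1), Benjamini-Hochberg adjusted p under 0.05 over the 13723 genes whose mean reached 1 FPKM). Over all genes tested, 6.97% rose, 7.55% fell and 16.8% were higher in Bcas2 cKO with no overlap between groups. All 9 had a log2 fold change of at least 1, against 2.97% of all genes, and 8 of these were called, against 2.21%. No member fell, also at an unadjusted p under 0.05 and with voom on the recovered reads. The median log2 fold change of the 9 was 1.76, between 1.07 (Fosl1) and 2.34 (Junb), against a median of -0.03 over all genes tested. Atf3 was the gene that did not pass. All 9 had a mean above 1 FPKM in control alone, so none entered the test only through its level in Bcas2 cKO. Of all genes called, 48.0% were rises; this share was 76.6% with libraries scaled to their total reads and 80.8% with libraries rescaled without acinar markers, settings that moved the median of all genes up by 0.12 and 0.14.

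Fos (ENSMUSG00000021250, chromosome 12, 85473890 to 85477273, GRCm38, 4 exons) encodes the founding Fos protein, which needs a Jun partner to bind DNA. It was 236, 570 and 544 FPKM in control libraries 1, 3 and 4, against 1285, 1527 and 1480 FPKM in Bcas2 cKO libraries 3, 4 and 5. Its lowest Bcas2 cKO value was 2.26 times its highest control value. The group means were 449.8 ± 186 and 1431 ± 129 FPKM (SD, n = 3 each), a log2 fold change of 1.77 (SE 0.34, limma adjusted p 0.019). The spread was wide in control, where the highest library was 2.42 times the lowest, and narrow in Bcas2 cKO, where that ratio was 1.19.

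Fosb (ENSMUSG00000003545, chromosome 7, 19302696 to 19310051, 4 exons) encodes FOSB and, by alternative splicing, a shorter form that lacks the end of the protein and is long-lived in neurons. The gene totals here do not separate the forms. It was 47.8, 184 and 236 FPKM in control libraries 1, 3 and 4, against 491, 728 and 674 FPKM in Bcas2 cKO libraries 3, 4 and 5. Bcas2 cKO library 3, the lowest of its group, was 2.08 times the highest control. The log2 fold change was 2.28 (SE 0.56, limma adjusted p 0.039), with group means of 156 ± 97.0 and 631 ± 124 FPKM.

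The 2 remaining Fos family genes were far less abundant. Fosl1 (ENSMUSG00000024912, chromosome 19, 5447703 to 5455945), which encodes FRA-1 and is itself a known AP-1 target, was 1.44, 1.48 and 2.19 FPKM in control libraries 1, 3 and 4, against 3.58, 5.96 and 4.59 FPKM in Bcas2 cKO libraries 3, 4 and 5. These values rest on few reads, 34 to 55 in the controls and 111 to 179 in the others. Its log2 fold change of 1.07 (SE 0.18, limma adjusted p 0.013) is held down by the pseudocount of 1 and was 1.41 with a pseudocount of 0.1, beside a ratio of group means of 2.77. Fosl2 (ENSMUSG00000029135, chromosome 5, 32135801 to 32157842), which encodes FRA-2, was 1.76, 3.20 and 2.20 FPKM in control, against 8.09, 12.3 and 6.58 FPKM in Bcas2 cKO, in the same order of libraries. Fosl2 rose by 1.54 (SE 0.24, limma adjusted p 0.0094) and was the one gene whose lowest Bcas2 cKO value lay in library 5.

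Jun, Junb and Jund are each annotated with 1 exon in their principal transcript (GENCODE M21), unlike the other 6, which have 3 or 4. Jun (ENSMUSG00000052684, chromosome 4, 95049034 to 95052222), the main Jun partner of Fos and a target of the JNK kinases, was 98.2, 262 and 257 FPKM in control libraries 1, 3 and 4, against 513, 564 and 663 FPKM in Bcas2 cKO libraries 3, 4 and 5. It rose by 1.61 (SE 0.37, limma adjusted p 0.033), and the lowest Bcas2 cKO value was 1.96 times the highest control.

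Junb (ENSMUSG00000052837, chromosome 8, 84974484 to 84978718), a Jun protein with weaker activation than JUN on many targets, had the highest fitted change of the 9, above Fosb by less than either standard error. It was 82.2, 222 and 164 FPKM in control libraries 1, 3 and 4, against 628, 827 and 759 FPKM in Bcas2 cKO libraries 3, 4 and 5, with no Bcas2 cKO value below 2.83 times the highest control. The log2 fold change was 2.34 (SE 0.34, limma adjusted p 0.0085), the 33rd largest of the 13723 genes tested. In the deposited table Junb overlaps Prdx2 on the opposite strand, and whether strand was used in counting is not known here. Prdx2 had a log2 fold change of -0.19 and did not pass (limma adjusted p 0.30).

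Jund (ENSMUSG00000071076, chromosome 8, 70698949 to 70700616), the Jun gene known for steady expression in resting cells, changed less. It was 77.4, 138 and 112 FPKM in control libraries 1, 3 and 4, against 179, 288 and 285 FPKM in Bcas2 cKO libraries 3, 4 and 5. The groups were close, the lowest Bcas2 cKO value being 1.30 times the highest control. It rose by 1.2 (SE 0.26, limma adjusted p 0.028). The log2 fold changes were 1.2 to 2.34 for the Jun genes and 1.07 to 2.28 for the 6 genes with introns, ranges that overlap. A part of exon number in the changes was not tested.

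Atf3 (ENSMUSG00000026628, chromosome 1, 191170296 to 191218039), a stress-induced repressor that pairs with Jun proteins, was the most variable. It was 10.6, 70.4 and 86.3 FPKM in control libraries 1, 3 and 4, against 131, 263 and 160 FPKM in Bcas2 cKO libraries 3, 4 and 5. The highest control was 8.17 times the lowest, and although the groups did not overlap, the log2 fold change of 2.09 (SE 0.74, 95% interval 0.34 to 3.85) had a limma adjusted p of 0.11. Maff (ENSMUSG00000042622, chromosome 15, 79346621 to 79359076), a small Maf protein, was 7.29, 19.3 and 18.9 FPKM in control, against 33.8, 70.8 and 50.8 FPKM in Bcas2 cKO, in the same order of libraries. Maff rose by 1.76 (SE 0.40, limma adjusted p 0.032).

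**Figure D1:**
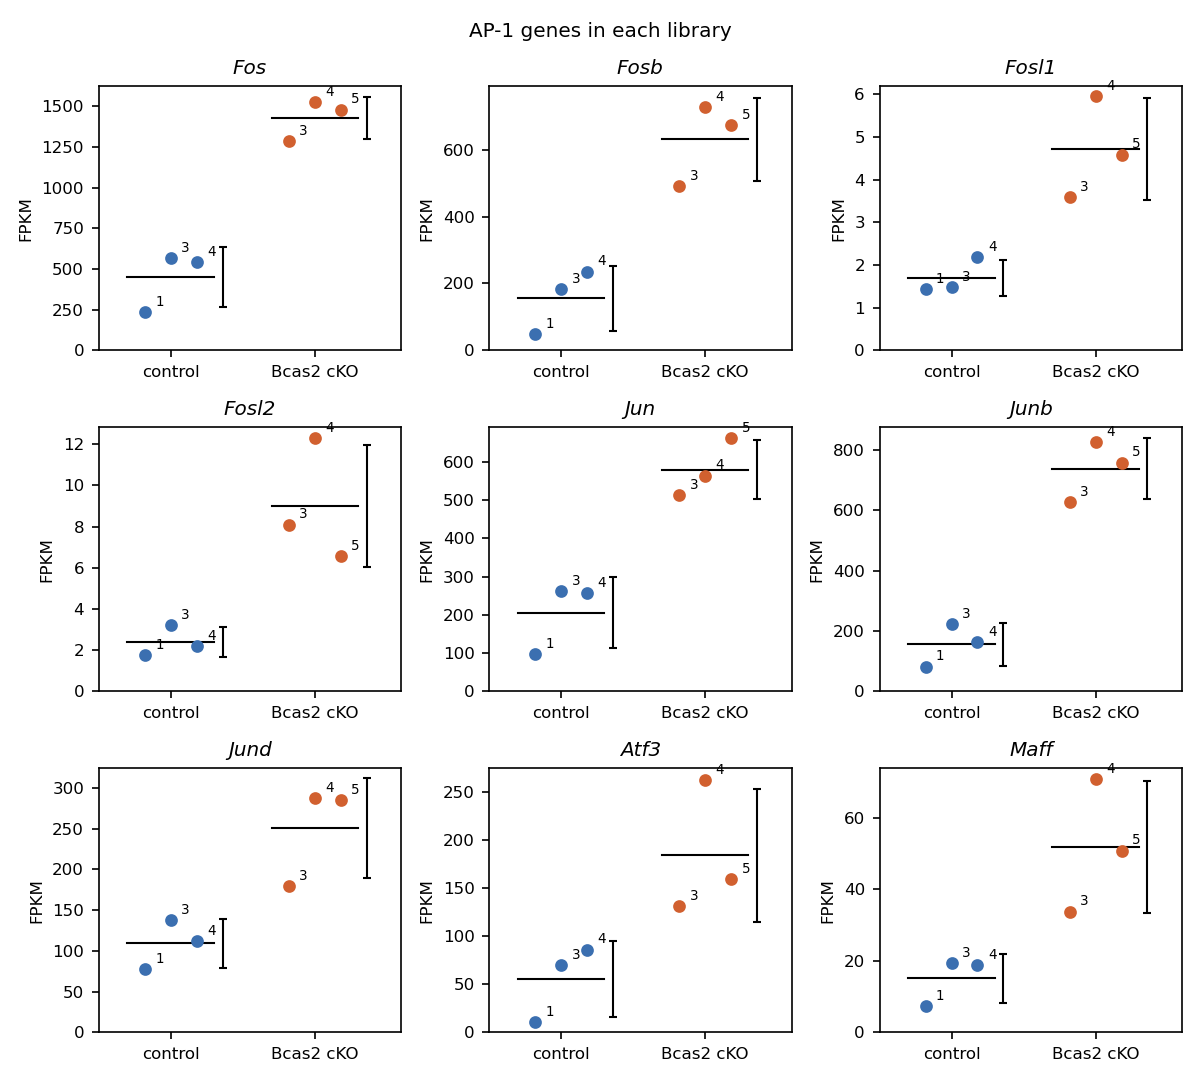
FPKM of each AP-1 gene (linear axis from 0) in the 3 control (blue) and 3 Bcas2 cKO (orange) libraries, with library numbers, the group mean (line) and SD (bar). No gene has a Bcas2 cKO point below a control point, and control library 1 is the lowest point for all 9 genes.

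Control library 1 stood apart, as it also did in the read share of the other immediate early genes given below. It was the lowest control for all 9 genes, against 38.5% of all genes tested, and its summed AP-1 level was 562 FPKM beside 1469 and 1423 FPKM in control libraries 3 and 4. Without it, the 9 log2 fold changes were smaller, for example 1.36 for Fos, 1.58 for Fosb, 1.94 for Junb and 1.17 for Atf3. All 9 genes then passed the test, beside 6.97% of all genes. In Bcas2 cKO, library 3 was the lowest for 8 genes and library 4 the highest for 8.

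Calls for single genes depended on other libraries too. The number of the 9 that rose was 6 without control library 3 and 5 without control library 4. Among the Bcas2 cKO libraries, it was 5 when library 3 was left out and 3 when library 4 or library 5 was. The share of all genes that rose in those fits dropped as well, to 4.97, 3.4, 3.56, 3.46 and 3.59%. Junb, Fosl1 and Fosl2 passed in all 6 fits that left out a library, with adjusted p up to 0.038, 0.045 and 0.040. Fos and Jund lost their calls in 3 of the 6 and Fosb, Jun and Maff in 4, with adjusted p up to 0.067 for Fos, 0.092 for Jund, 0.11 for Fosb, 0.099 for Jun and 0.095 for Maff. The smallest log2 fold change in these fits was 0.92, for Fosl1 when Bcas2 cKO library 4 was left out.

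**Figure D2:**
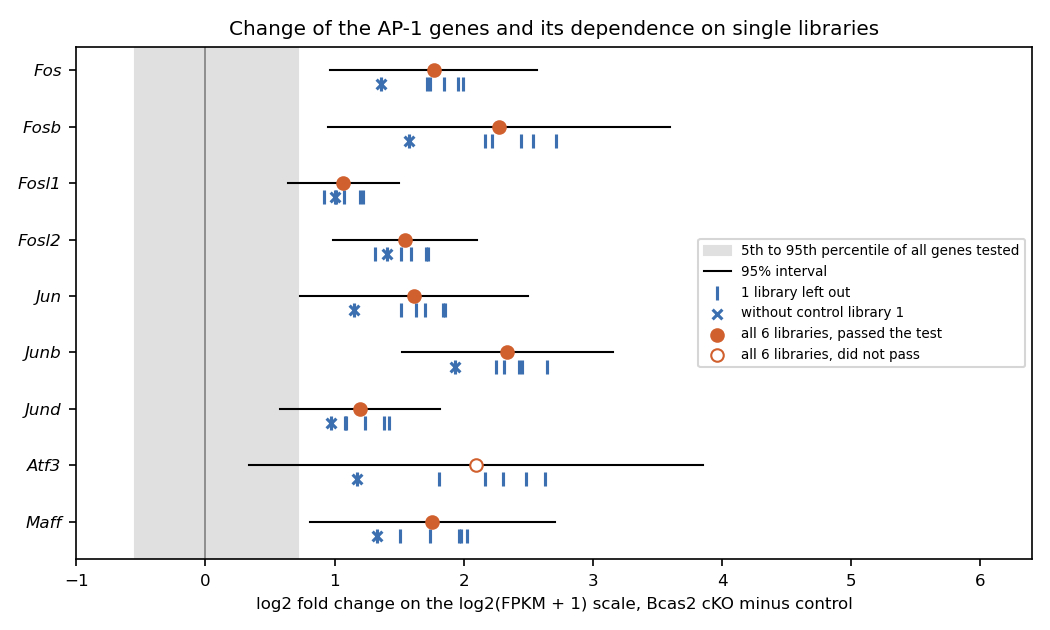
Log2 fold change of each AP-1 gene (x axis, log2(FPKM + 1) scale, Bcas2 cKO minus control): circles for all 6 libraries with their 95% interval, blue ticks for fits without 1 library, and the cross for the fit without control library 1. The circles lie between 1.07 and 2.34, right of the grey band from -0.55 to 0.72 (5th to 95th percentile of all genes tested).

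The 9 genes took 0.157, 0.382 and 0.425% of recovered reads in control libraries 1, 3 and 4, and 1.10, 1.38 and 1.28% in Bcas2 cKO libraries 3, 4 and 5. Summed over the 9, the mean level was 1152 ± 511 FPKM for control and 3881 ± 536 FPKM for the 3 Bcas2 cKO libraries (SD). The ratio of these means was 3.37. Fos was the most abundant gene in all 6 libraries, and Atf3, Maff, Fosl2 and Fosl1 held ranks 6 to 9 in all 6. In the middle ranks, the control means of Jun (206 ± 93.2 FPKM), Junb (156 ± 70.3 FPKM) and Fosb (156 ± 97.0 FPKM) differed by less than their SDs.

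The mix shifted less than the total. Fos held 38.2 to 41.9% of the summed FPKM in control, against 35.6 to 39.3% in Bcas2 cKO, ranges that overlap. The Fos family together held 52.6 ± 2.22 and 53.6 ± 0.917%, and the Jun family 41.9 ± 4.18 and 40.4 ± 1.32%. Within the Jun family the order changed. Junb was below Jun in every control library, with Junb to Jun ratios of 0.837, 0.848 and 0.639, and above it in every Bcas2 cKO library, with ratios of 1.23, 1.46 and 1.14. The share of Jund was 13.8, 9.38 and 7.90% in control and 5.48, 6.71 and 6.99% in Bcas2 cKO, and the groups did not overlap. These shares were described and not tested, since 3 against 3 libraries cannot give an exact 2-sided permutation p below 0.1.

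**Figure D3:**
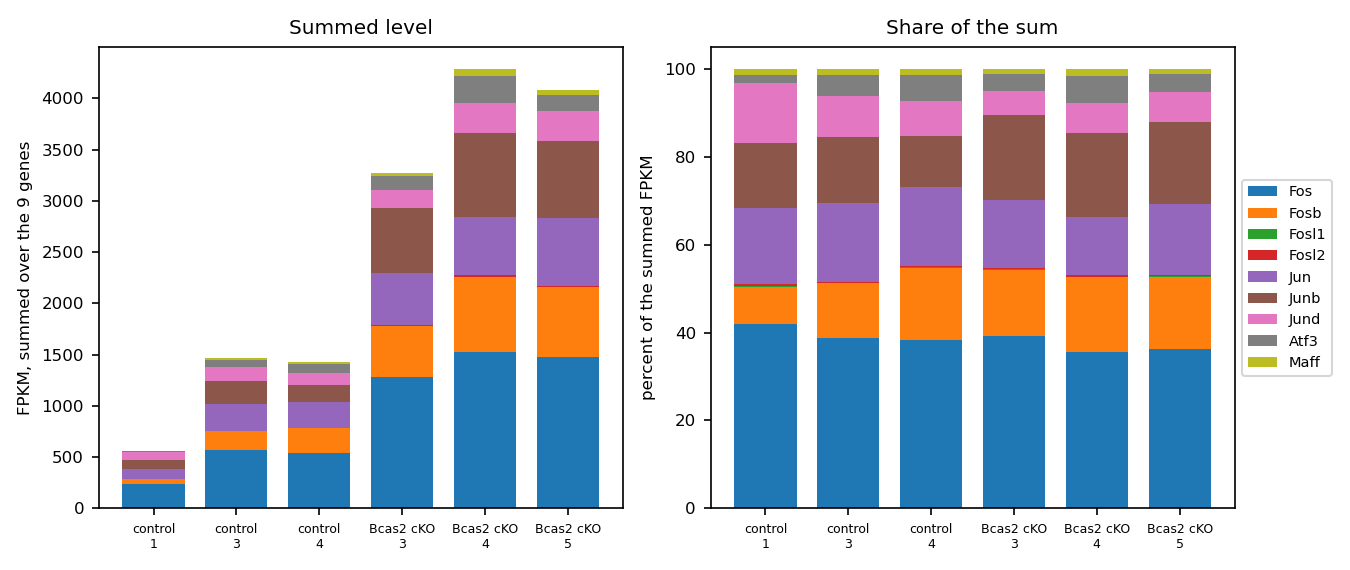
Summed FPKM of the 9 AP-1 genes in each library (left, axis from 0) and each gene's percent of that sum (right). The sum is 562 to 1469 FPKM for control and 3273 to 4286 FPKM for Bcas2 cKO, while the Fos share stays between 35.6 and 41.9%.

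Most other basic leucine zipper (bZIP) genes did not pass the test, as held for all genes, of which 14.5% were called. The deposited table marks 39 further genes as bZIP in its own transcription factor column. Of the 27 that were tested, 3 rose (11.1%, against 6.97% of all genes) and 1 fell (against 7.55% of all genes). Their median log2 fold change was -0.05. At an unadjusted p under 0.05, 8 were higher and 5 lower, and with voom 6 rose and 2 fell. Creb3, an ER-membrane factor, rose by 0.83 and passed without each library in turn. Crem, which makes repressors of the cyclic AMP response, rose by 0.79 (limma adjusted p 0.049) but passed in 1 of the 6 fits with a library left out, the one without Bcas2 cKO library 5. Mafk, a small Maf like MAFF, went from 10.03 ± 1.33 to 16.9 ± 2.08 FPKM, a log2 fold change of 0.70, and did not pass without control library 4 (limma adjusted p 0.054). Atf5, an amino acid and mitochondrial stress factor, fell by 1.07 and passed in 3 of those 6 fits, not without control library 3, Bcas2 cKO library 3 or Bcas2 cKO library 5 (limma adjusted p up to 0.056). These 4 were named because they were the ones called. Among 10 tested partners and relatives of AP-1, Mafk alone rose (10%, against 6.97% of all genes) and none fell. At an unadjusted p under 0.05, 4 of the 10 were higher and 2 lower, and with voom 2 rose and none fell. Whether these lists differ from the AP-1 genes was not tested.

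Upstream of Fos and Jun, 2 of 27 kinases and factors rose (7.41%, against 6.97% of all genes) and none fell. Their median was 0.02 (6 higher and 1 lower at an unadjusted p under 0.05, and 3 rose and 0 fell with voom). Srf, the serum response factor that drives Fos with its Elk partners, rose from 23.8 ± 4.82 to 48.8 ± 7.37 FPKM (log2 fold change 1.01, limma adjusted p 0.012) and passed without each library in turn. Map2k2, the MEK2 kinase upstream of ERK, rose by 0.38 and passed in 1 of the 6 fits with a library left out, the one without control library 1. mRNA levels do not show kinase activity.

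Among 13 genes of AP-1 mRNA and protein turnover, 4 rose (30.8%, against 6.97% of all genes) and none fell. At an unadjusted p under 0.05 and with voom 0 were lower, and the median was 0.14. Zfp36 encodes tristetraprolin, which binds AU-rich elements and speeds decay of mRNAs such as Fos. It rose from 44.4 ± 11.6 to 176 ± 23.4 FPKM (log2 fold change 1.99, limma adjusted p 0.0030) and passed without each library in turn. Its relatives Zfp36l1 and Zfp36l2 rose by 0.83 and 0.40, and Khsrp, another decay factor, by 0.40. The call for Zfp36l1 was lost when Bcas2 cKO library 3 was left out, that for Khsrp in 4 of 6 such fits and that for Zfp36l2 in all 6.

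Of 22 tested genes known as AP-1 targets in other tissues, 9 rose (40.9%, against 6.97% of all genes) and none fell. At an unadjusted p under 0.05 and with voom 0 were lower, and the median was 0.54. The 9 include Fosl1, a member of the family itself. Dusp1, a phosphatase that switches off MAP kinases, rose from 107 ± 42.5 to 389 ± 30.7 FPKM. The chemokine genes Cxcl1 (0.523 ± 0.045 to 3.77 ± 0.417 FPKM) and Cxcl2 (0.862 ± 0.517 to 4.77 ± 0.258 FPKM) rose and, with Dusp1, passed without each library in turn. Ccnd1 and Vegfa, abundant genes also known as targets and chosen after their values were seen, had log2 fold changes of -0.12 and -0.16 and did not pass.

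Other immediate early genes were higher as well. Of 21 tested, 18 rose (85.7%, against 6.97% of all genes) and none fell. At an unadjusted p under 0.05 and with voom 0 were lower, and the median was 1.93. Arc, a synaptic gene, rose by 3.93, the nuclear receptor Nr4a1 by 2.58, the activity-induced factor Npas4 by 2.52 and Socs3, an inhibitor of cytokine signalling, by 2.48. Arc, Nr4a1 and Socs3 passed without each library in turn, and Npas4 lost its call in 4 of the 6 fits. Between 12 (without Bcas2 cKO library 4) and 18 of the list rose when a library was left out. The list took 0.145, 0.309 and 0.282% of reads in control libraries 1, 3 and 4, lowest in library 1 as for AP-1. In Bcas2 cKO libraries 3, 4 and 5 it took 0.885, 1.04 and 0.946%. The early genes Myc, Ier5 and Ctgf, the 3 that did not pass, had log2 fold changes of 0.17, 0.30 and 0.075. Dusp1 and Zfp36 are on this list too. The list was drawn up with its direction in these libraries known, so that direction is no independent evidence.

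**Figure D4:**
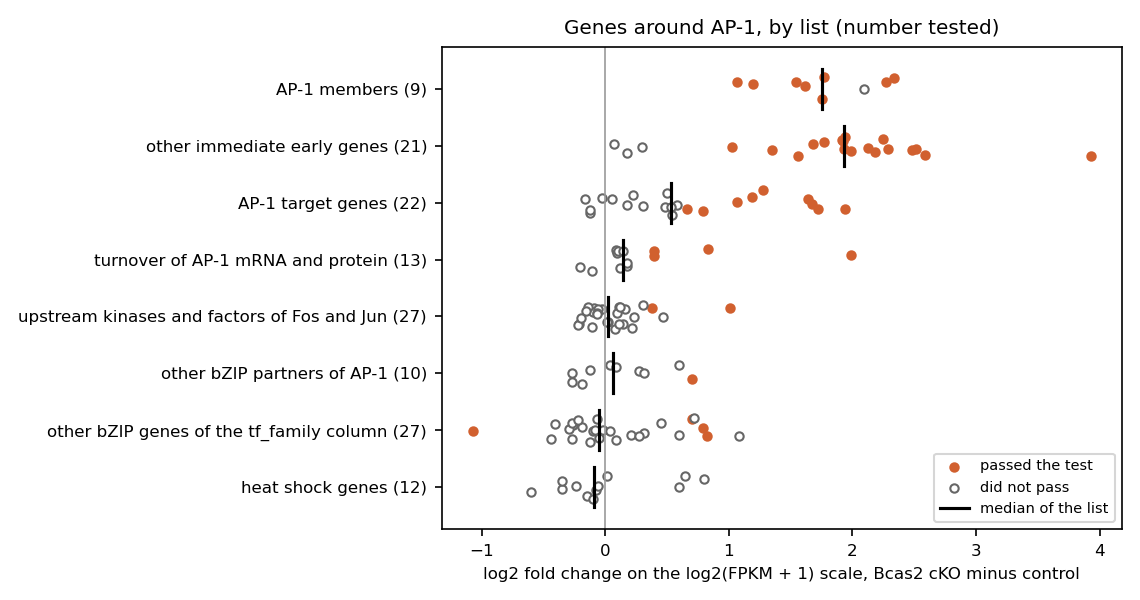
Log2 fold change (x axis, log2(FPKM + 1) scale, Bcas2 cKO minus control) of every tested gene of 8 lists, filled where the gene passed the test, with the list median as a black line. The AP-1 genes (median 1.76) and the other immediate early genes (1.93) lie to the right, and the bZIP, upstream and heat shock lists have medians between -0.09 and 0.06.

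Genes with the pattern most like AP-1 were ranked among 7057 named genes whose mean reached 5 FPKM, by Pearson's r over the 6 libraries with the mean log2(FPKM + 1) of the 9. The 6 points fall in 2 groups that differ, so r largely reflects the group difference and serves as a description only. Of all genes tested, 3.91% had an r over 0.9, against 76.2% of the 21 other immediate early genes tested (median r 0.968). The pattern is therefore shared with those genes. The first 5 were Ctdp1 (r = 0.997), Lonp1 (0.995), Tuba1a (0.994), Ccnl1 (0.993) and Csrnp1 (0.993). Tuba1a, an alpha-tubulin, was 39.8, 79.2 and 68.4 FPKM in control libraries 1, 3 and 4, against 108, 152 and 129 FPKM in Bcas2 cKO libraries 3, 4 and 5. Csrnp1, a nuclear protein gene, was 4.25, 14.01 and 10.2 FPKM and then 26.5, 39.2 and 31.5 FPKM, also lowest in control library 1 and highest in Bcas2 cKO library 4.

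Ranked instead by r of the deviations from group means, which leaves out the group difference, the first 5 were Fbxl5 (0.998), Gprasp1 (0.997), Qars (0.994), Fbxo33 (0.994) and Prps1l3 (0.993). None of these 5 passed the test between groups, and their log2 fold changes lay between -0.38 (Gprasp1) and 0.17 (Qars). By the same measure 7 members tracked the mean of the 9 closely, with r from 0.869 (Jund) to 0.987 (Atf3), and Fosl1 (0.587) and Fosl2 (0.618) less so. Each member is part of that mean. The other immediate early genes had a median r of 0.865 by this measure, against 0.079 over all genes tested.

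Levels that could move with the AP-1 genes were read from the same libraries. Heat shock genes, which also respond to tissue handling, took 0.244, 0.441 and 0.403% of reads in control libraries 1, 3 and 4 and 0.295, 0.330 and 0.454% in Bcas2 cKO libraries 3, 4 and 5, so the groups overlapped. None of the 12 passed the limma test, none had an unadjusted p under 0.05 and none passed with voom; without control library 1, 2 fell. Within control they were lowest in library 1, as the AP-1 genes were. Within Bcas2 cKO they were lowest in library 3, as 8 AP-1 genes were, and highest in library 5, whereas 8 AP-1 genes were highest in library 4. Their median r of deviations from group means with the AP-1 mean was 0.720, against 0.079 over all genes tested. Transcripts of the mitochondrial genome took 1.55 to 1.75% of control reads and 1.66 to 1.82% of Bcas2 cKO reads.

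Acinar cell markers, from the exocrine tissue around the islets, took 0.539 to 1.34% of control reads and 1.75 to 4.98% of Bcas2 cKO reads. Of 21 tested 6 rose (28.6%, against 6.97% of all genes). This count dropped to 0 when control library 3, control library 4 or, in the other group, library 5 was left out. It dropped to 1 without Bcas2 cKO library 4. It was 15 without control library 1 and 17 with voom. Within groups their order differed from that of AP-1 in part. Among controls the acinar share was highest in library 1, where AP-1 was lowest. In Bcas2 cKO library 5 had 4.98% acinar reads beside 2.33% in library 4, where AP-1 was higher. Library 3, with 1.75% acinar reads, was the lowest of that group for both. With libraries rescaled without the acinar markers 8 of the 9 AP-1 genes rose. That setting replaced the deposited depth factor by the total of the other reads. It moved all genes up, by a median of 0.14, and 1736 genes rose against 957 before. Scaling to total reads with the acinar markers kept already moved the median up by 0.12, and 1393 genes rose. The setting without acinar markers rescales whole libraries and removes no AP-1 reads that came from acinar cells, so it does not measure their part. Macrophage and lymphocyte markers took 0.0299 to 0.0372% of control reads and 0.0440 to 0.0628% of Bcas2 cKO reads. Of 10 tested 5 rose (50%, against 6.97% of all genes), among them the lysosomal marker Cd68 (2.11 ± 0.368 to 5.62 ± 0.643 FPKM). The number of these markers that rose was 3 without control library 1 or 3 and 4 without Bcas2 cKO library 4. It was 2 without each of the other 3 libraries. The macrophage and lymphocyte share was highest in Bcas2 cKO library 3, where 8 of the 9 AP-1 genes were lowest of that group. Ductal cell markers took 0.0658, 0.0656 and 0.0621% of reads in control libraries 1, 3 and 4 and 0.117, 0.138 and 0.119% in the Bcas2 cKO libraries, with no overlap. Their summed level was 258, 311 and 272 FPKM and then 512, 655 and 570.0 FPKM, lowest in control library 1 and, within Bcas2 cKO, lowest in library 3 and highest in library 4, as the summed AP-1 level was. Of 8 tested 2 rose (25%, against 6.97% of all genes). They were the keratin genes Krt8 (log2 fold change 1.77, limma adjusted p 0.0063) and Krt18 (1.12, limma adjusted p 0.0034), both without each library in turn as well. Their group means went from 83.6 to 289 FPKM and from 73.1 to 161 FPKM. These 2 genes carried most of the rise in the ductal share and summed level. The duct keratins Krt19 (0.31) and Krt7 (-0.36) did not pass. Markers of alpha, delta and PP cells, the other islet endocrine cells, took 3.69 to 3.81% of control reads, lower than the 4.59 to 4.98% of Bcas2 cKO reads. Of 11 tested 2 rose (18.2%, against 6.97% of all genes). The count was 3 without control library 3 and 0 without any other single library. Stellate cell and fibroblast markers (1 of 9 rose) and Schwann cell and neuron markers (1 of 5 rose, 2 fell) had shares that overlapped between groups. Over all genes 6.97% rose and 7.55% fell. None of 10 endothelial markers passed with limma, at an unadjusted p under 0.05 or with voom. The part of these cell types, of tissue handling and of RNA quality in the AP-1 levels was not tested.

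**Figure D5:**
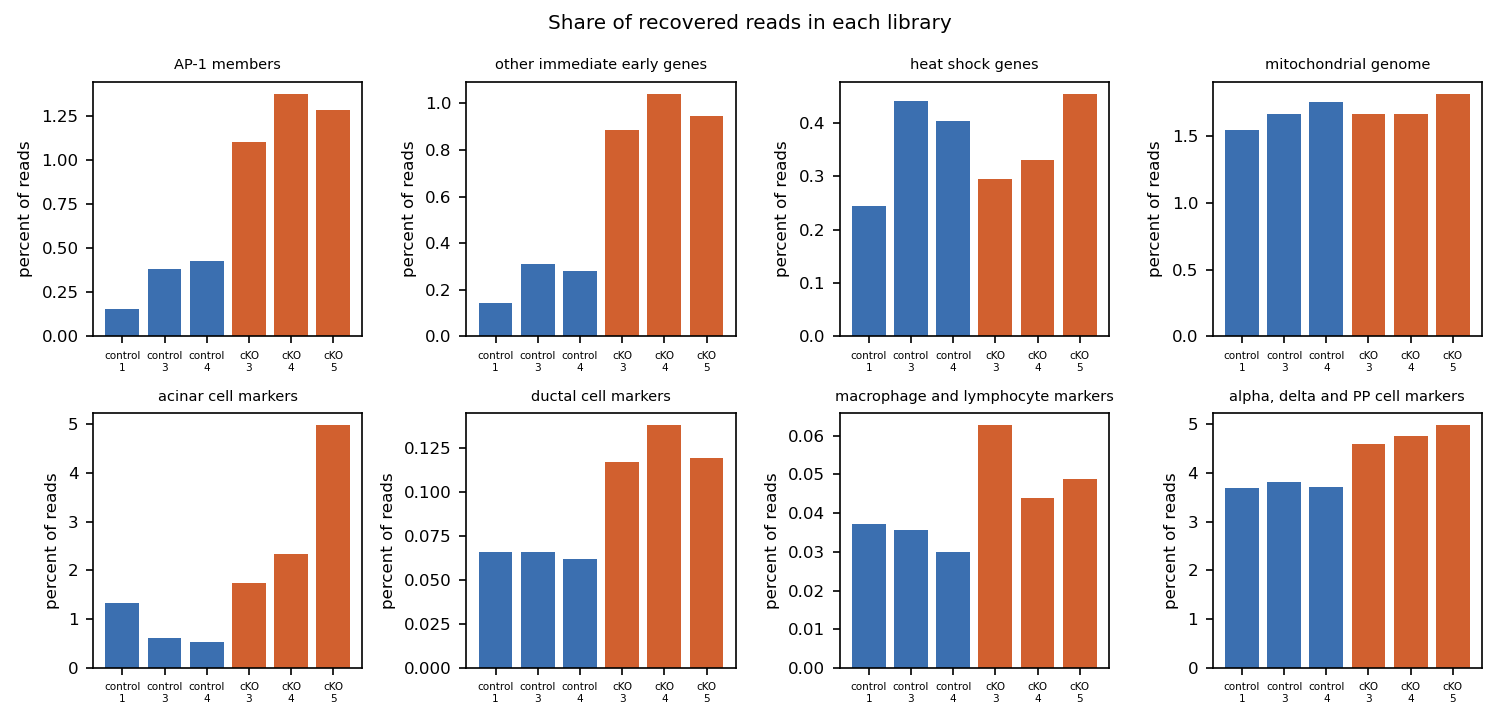
Percent of recovered reads (each axis from 0) taken by 8 gene lists in each control (blue) and Bcas2 cKO (orange) library. AP-1 genes (0.157 to 0.425% against 1.10 to 1.38%), the other immediate early genes and the acinar, ductal, macrophage and endocrine marker lists do not overlap between groups, whereas heat shock and mitochondrial shares overlap. The ductal difference lies mostly in Krt8 and Krt18.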

How the data were processed

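The authors deposited 1 table of FPKM with gene lengths, per the file headers; the build was GRCm38 (mm10), per the submitters' processing notes. Per the labels' protocols, Trizol was used for extraction and a SMARTer mRNA kit for the libraries. No source used here gives the aligner, the counting program or its use of strand. Labels name Bcas2 cKO samples 1, 3 and 4, but the table has columns 3, 4 and 5; column 5 was used as a Bcas2 cKO library with no sample of its own. Reads per gene were recovered from FPKM and length: 100% of values came out whole, within 0.01 of a read. Every pair of libraries differed beyond sampling noise (chi-square at least 13.6 per degree of freedom).

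Genes whose mean reached 1 FPKM were fitted on log2(FPKM + 1) with limma 3.58.1 (trend) in R 4.3.3, with a threshold of 0.05. Fold changes understate changes of low genes. Alternatives were other pseudocounts, filters, scalings and variance models, voom, a replicate block and leaving out each library; scaling to total reads was chosen after seeing the data. Members and lists were chosen with earlier results of these data known. In each other list up to 4 called genes of largest change, or the 2 of highest level where none was called, were to be named, with Bcas2 and the genes of most similar pattern; those of the cell type and heat shock lists are mostly not reported here, nor is 1 of the AP-1 target list. Of 14 turnover genes 1 symbol was not matched. Promoters came from RefSeq (GRCm38.p6) and exon numbers from GENCODE M21. Python 3.11.15, pandas 2.3.3 and matplotlib 3.10.9 made tables and figures.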

Additional observations from a re-analysis of the deposited data

How the results depend on the processing

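Of the 9 AP-1 genes 8 rose with all libraries; the number was 3 with no filter on low values, 5 with quantile normalization and between 3 and 9 when 1 library was left out. It was 7 or 8 in the other settings without a block. With a replicate block on the library numbers, 4 of the 9 rose, as did 2.57% of all genes, and 538 genes were called in all. Only numbers 3 and 4 occur in both groups, and the deviations of same-numbered libraries correlated at -0.15 and 0.05, so the numbers are not taken as pairs. The 1993 genes called over the whole table became 1144 with no filter and between 878 and 1950 when 1 library was left out. All 9 log2 fold changes stayed above 0 in every setting run. Median-of-ratios scaling used the same factor, 0.995, in every library, so it could hardly change the comparison and is no check of it. The Fos share of the Bcas2 cKO sum, 37.04%, was 39.6% when Jund was left out of the sum and between 35.9 and 37.75% when 1 Bcas2 cKO library was left out. For 35 called genes outside the family, 514 of 657 refits gave the same call, 143 lost it and 0 changed sign. Depth limits Fosl1 most, with 34 to 179 reads per library.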
